A study of Homo sapiens with 3 samples.

Results

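Peaks of the transcription factor FOXA2 were examined at 7 genes of glucose production and the fasting response, namely G6PC, PCK1, FBP1, PPARGC1A, IGFBP1, TAT and CPS1. The members were given by name, and each locus was the gene with 50 kb on each side on hg19. The rule uses no peak value, although the set was chosen with earlier results of these data known. A peak belonged to a locus when its midpoint lay inside. The loci covered 1079 kb and held 30 of the 63949 peaks of replicate 1 and 13 of the 26907 peaks of replicate 2. The cells were Caco2, an established human colorectal adenocarcinoma line that serves as a model of intestinal cells, grown in low-glucose medium with serum, with no other treatment or genotype given in the labels. Chromatin immunoprecipitation followed by sequencing (ChIP-seq) with a FOXA2 antibody was done in 2 replicates, and an input library without antibody served the authors' peak calling. Nothing in the labels says whether the replicates were separate cultures, so their spread may be technical. The lists hold binding positions and no expression values, and the identity of the cells could therefore not be checked against marker genes.

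FOXA2 is a forkhead factor of endoderm-derived organs that binds nucleosomal DNA and helps other regulators to reach their sites. In liver it is known for its part in the fasting programme, in which glucagon, glucocorticoids and the fall of insulin raise glucose synthesis from lactate and amino acids. Gluconeogenesis also takes place in kidney and in the small intestine, and enterocytes hold the first steps of the urea cycle, which there serve citrulline production. In this set, G6PC (glucose-6-phosphatase), PCK1 (cytosolic phosphoenolpyruvate carboxykinase) and FBP1 (fructose-1,6-bisphosphatase) are enzymes of gluconeogenesis. PPARGC1A encodes the coactivator PGC-1alpha, which drives such genes in fasted liver. IGFBP1 is a secreted binding protein of insulin-like growth factors that insulin represses. TAT (tyrosine aminotransferase) starts tyrosine breakdown and is a textbook glucocorticoid-induced liver gene, and CPS1 (carbamoyl-phosphate synthetase 1) carries out the first step of the urea cycle in mitochondria.

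The promoters of these genes are where much of their hormonal control has been mapped in liver, so promoter sequences were searched for short strings. They were not set against the peaks, which are on another build. RefSeq promoter windows on GRCh38.p14 were matched for 4 of the 7 genes, G6PC (listed there as G6PC1), FBP1, PPARGC1A and CPS1, and not for PCK1, IGFBP1 and TAT. The match gave 7 windows, with 2 for PPARGC1A and 3 for CPS1, which have several starts. The 250 bases before the start were searched on both strands for 3 forkhead strings, which were TGTTTAC, the variant TATTTAC with another second base and the variant TGTTTGC with another sixth base. A forkhead string was found in 1 of the 7 windows, that of G6PC1, against 8.27% of all 35116 RefSeq windows. It was TGTTTGC, which begins 140 bases before the start and which 3.23% of all windows hold. The G6PC1 window at chr17:42900549-42900798 (GRCh38.p14, plus strand) had a GC content of 44.0%, and the FBP1 window at chr9:94639519-94639768 (minus strand) had 72.8%, against a median of 58.0% over all windows. Both are shown 5′ to 3′ on the strand of the gene, as the window with the string and a GC-rich window without it, with the forkhead string in capitals.
G6PC1: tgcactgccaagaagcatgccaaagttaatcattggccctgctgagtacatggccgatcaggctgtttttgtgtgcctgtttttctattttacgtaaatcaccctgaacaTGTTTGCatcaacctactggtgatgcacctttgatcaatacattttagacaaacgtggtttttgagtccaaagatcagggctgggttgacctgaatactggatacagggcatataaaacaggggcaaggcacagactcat
FBP1: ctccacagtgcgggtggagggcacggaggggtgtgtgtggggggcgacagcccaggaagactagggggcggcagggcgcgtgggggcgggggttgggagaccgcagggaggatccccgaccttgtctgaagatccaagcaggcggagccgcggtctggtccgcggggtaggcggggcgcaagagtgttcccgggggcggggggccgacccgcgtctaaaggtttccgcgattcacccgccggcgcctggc

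Other factors of the fasting response were searched for in the same windows. The core TGACG of the cAMP response element was in 1 of the 7 windows (PPARGC1A; 21.2% of all windows), the loose C/EBP string TTGCNNAA in 1 (the other PPARGC1A window; 9.05%) and the GATA string AGATAA in 2 (CPS1; 9.17%). None of the 7 held the insulin response string TGTTTTG (4.30% of all windows), the glucocorticoid receptor core TGTTCT (12.4%), the full cAMP response element TGACGTCA (1.65%), the HNF4 string CAAAGTCCA (0.325%), the C/EBP string TTGCGCAA (0.131%) or an HNF1 element (0.00570%). TGACG is also the first part of TGACGTCA. The HNF1 element was searched as 1 long string only, which 2 of the 35116 windows held, and looser HNF1 sequences were not searched. At a share this low, absence from 7 windows could hardly have turned out otherwise. The same holds for the rare HNF4 string and the full C/EBP string. The insulin response string and the full cAMP response element, at 4.30% and 1.65% of all windows, were also unlikely to occur in 7 windows. Absence of any of these strings, or of the glucocorticoid receptor core, therefore does not show that these promoters lack such elements. Other variants of the insulin response string were not searched. A match is a description of letters in these windows and not a binding site.

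No FOXA2 peak of either replicate lay at the start of any of the 7 genes, taking the 1 start per gene that the intervals give. The share of all genes with a peak at the start was not counted, so this lack cannot be called particular to them. Over the genome there were 2.27 replicate 1 peaks and 0.954 replicate 2 peaks per 100 kb. How these peaks are spread relative to gene starts was not examined. Gene ends are known here to about 1 kb, from the intervals on hg19, with 1 start per gene. The peak nearest to a start was at TAT, 5.11 kb inside the gene, followed by peaks 5.26 kb upstream of IGFBP1 and 5.65 kb upstream of G6PC. At the other genes the nearest peak was 12.5 kb from the start (PPARGC1A), 16.3 kb (PCK1), 27.7 kb (CPS1) and 28.2 kb (FBP1). These nearest peaks were weak, with scores of 5 to 11 in normalised tags, which are the tags of a peak brought by the authors to a library of 10000000 tags. The several RefSeq starts of PPARGC1A and CPS1 were not placed on hg19, so peaks near them were not judged. The order above therefore holds only for the 1 start per gene used. On GRCh38.p14 the CPS1 windows end at 210477684, 210519717 and 210593354, so CPS1 has later starts inside the gene. The shared CPS1 site 40.1 kb from the start used, with scores of 10 and 19, may lie closer to a later start.

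Sites called in both replicates were found at 5 of the 7 genes, a share near that of genomic windows of these lengths. A site was taken as shared when a replicate 1 peak had at least 1 bp in common with a replicate 2 peak. The loci held 12 shared sites, 4 each at TAT and CPS1, 2 at FBP1, 1 at G6PC and 1 at PPARGC1A, and none at PCK1 or IGFBP1. TAT and CPS1 thus held 8 of the 12. Among windows that held any peak, 21.0% at the length of the CPS1 locus had no shared site. At the lengths of PCK1 and IGFBP1 it was 36.7%, and the other lengths lay between, so loci without a shared site were common. Replicate 1 alone had 18 further peaks, and replicate 2 alone had 1. Of the replicate 1 peaks in the loci, 40% were shared (95% exact binomial interval 22.7% to 59.4%), against 38.1% of the whole list. Of the replicate 2 peaks in the loci, 92.3% were shared (64.0% to 99.8%), against 90.5% of the whole list. The intervals cover counting error only, and both shares were close to those of all peaks. Replicate 1 was sequenced to 26183147 tags and replicate 2 to 15756702, and the part of this difference in the excess of replicate 1 peaks was not tested.

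**Figure D1:**
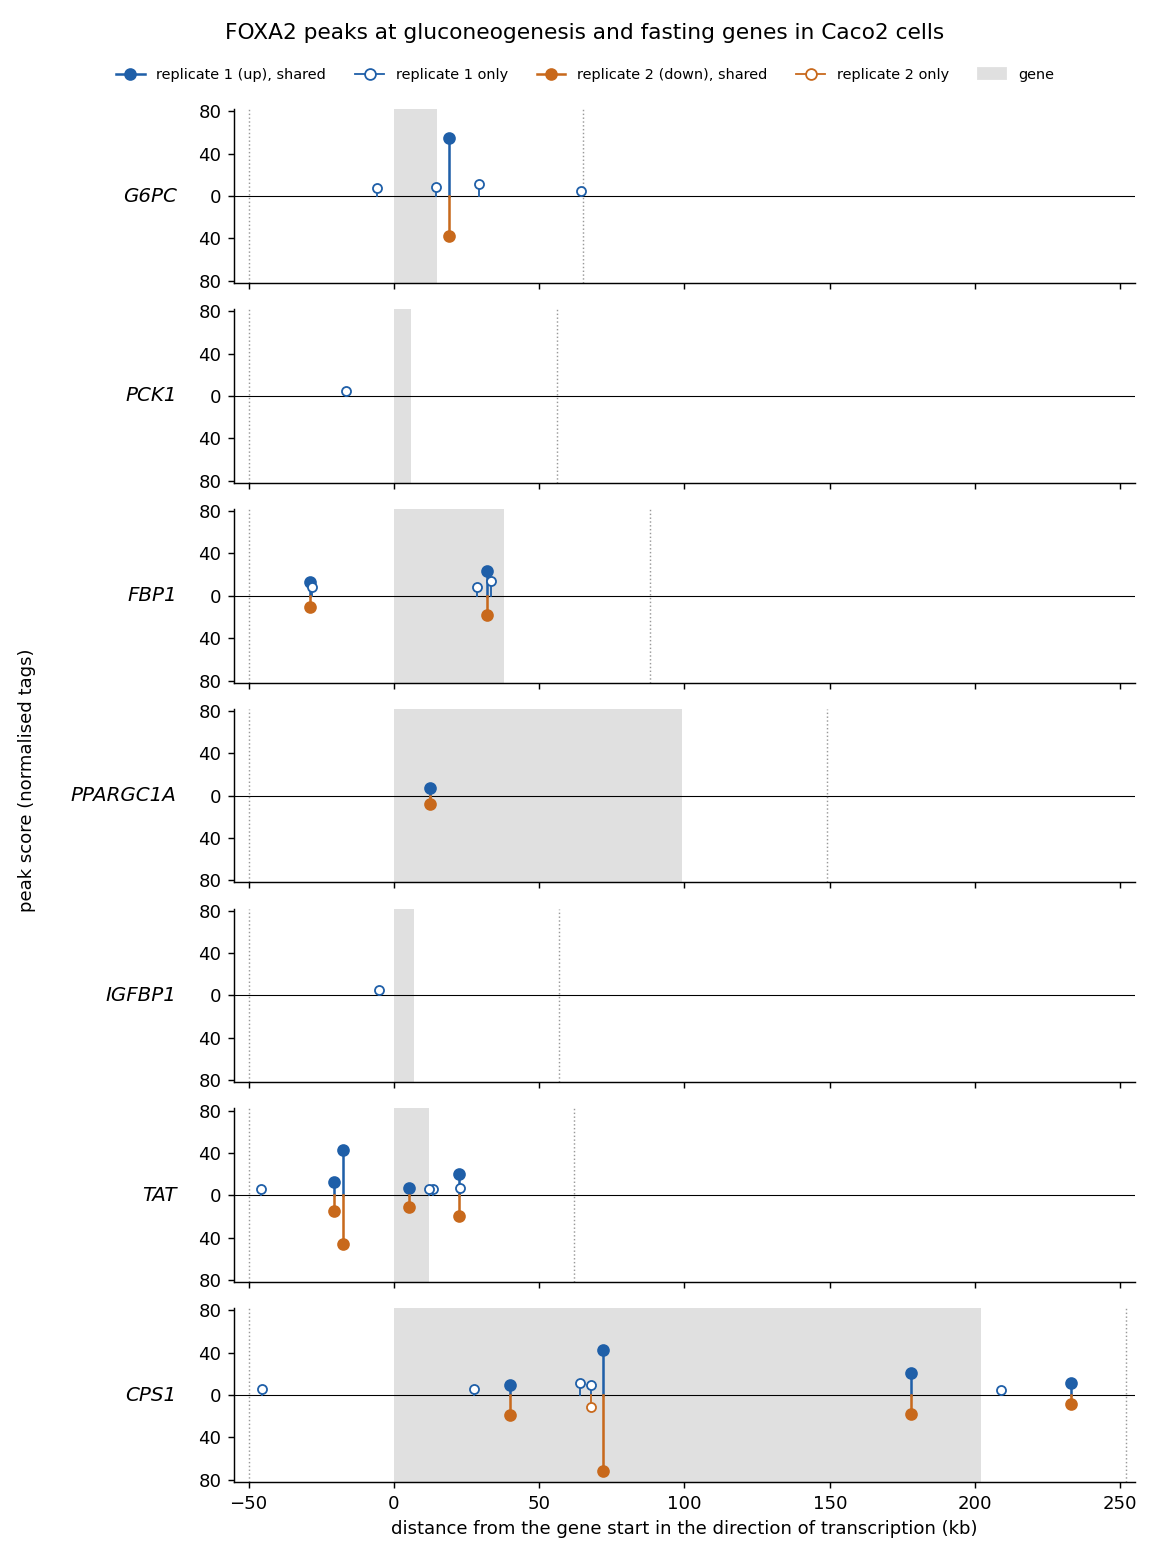
FOXA2 peaks at the 7 loci, by distance from the gene start in the direction of transcription (kb), with the peak score in normalised tags drawn upwards for replicate 1 and downwards for replicate 2. Filled points are the 12 shared sites, open points are peaks of 1 replicate, grey marks the gene and dotted lines the ends of the locus. The tallest pairs stand inside CPS1, upstream of TAT and beyond the end of G6PC. No point stands at a gene start, with 1 start per gene.

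At G6PC, whose product releases free glucose in the last step of gluconeogenesis, FOXA2 occupied a strong site just beyond the end of the gene. The locus (chromosome 17, 41002 kb to 41117 kb) held 5 peaks in replicate 1, of which 1 was shared with the sole peak of replicate 2. That site, at 41071010 to 41071132, lay 4.07 kb past the gene end and 19.1 kb from its start, on the side of PTGES3L-AARSD1, the next protein-coding gene in RefSeq. It scored 55 in replicate 1 and 38 in replicate 2, 46.5 ± 12 (SD, n = 2). Its score stood at percentile 96.9 of the replicate 1 list and 90 of the replicate 2 list, and 9.27% of all shared sites had a mean score as high or higher. The other 4 peaks were in replicate 1 alone and scored 5 to 11. The highest of them, at 41081284 to 41081406, lay 14.3 kb past the gene end, and another, with a score of 9, lay inside the gene, 14.4 kb from its start. The peak with a score of 8 stood 5.65 kb upstream of the start, the nearest of the 5 to the promoter. A single shared site or more was found in 64.5% of windows of 115 kb, the length of this locus, that held any peak.

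PCK1, the enzyme that commits carbon to the pathway in liver, had no shared FOXA2 site. The locus (chromosome 20, 56086 kb to 56192 kb) held 1 peak, in replicate 1 alone, 16.3 kb upstream of the start at 56119616 to 56119738, with a score of 5. That score stood at percentile 17.8 of the list. The nearest shared site was outside the locus, 72.1 kb past the gene end on the side of ZBP1, at 56214023 to 56214145. It scored 34 in replicate 1 and 8 in replicate 2, a wide spread. Among windows of 106 kb that held any peak, 36.7% had no shared site either, so the lack of one was common at this length. The lowest scores listed were 3 in replicate 1 and 5 in replicate 2, and binding too weak for the authors' calling was not detectable.

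FBP1, which removes a phosphate from fructose-1,6-bisphosphate, had 2 shared sites of moderate to low score. The locus (chromosome 9, 97315 kb to 97453 kb) held 5 peaks in replicate 1 and 2 in replicate 2. The stronger shared site, at 97370902 to 97371024, lay inside the gene 32.0 kb from its start, toward the 3′ end. It scored 23 and 18 in replicates 1 and 2, 20.5 ± 3.54 (SD, n = 2). The other, at 97431675 to 97431797, lay 28.7 kb upstream on the side of AOPEP and scored 13 and 11, 12 ± 1.41 (SD, n = 2). Both were thus alike in the replicates. Each had weaker company in replicate 1, with peaks of 14 and 8 at 33.5 kb and 28.5 kb inside the gene and a peak of 8 at 28.2 kb upstream. The peak of 14, at 97369435 to 97369557, was the highest of all single-replicate peaks in the 7 loci. Among windows of 138 kb with any peak, 37.9% held 2 or more shared sites. FBP2, the muscle isoform of the enzyme, is the next gene on the 3′ side in RefSeq and was not placed on hg19.

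PPARGC1A held the weakest shared site of the set and no other peak. The locus (chromosome 4, 23743 kb to 23942 kb) had 1 peak in each replicate, at 23879446 to 23879568 in replicate 1, 12.5 kb inside the gene. It scored 7 in replicate 1 and 8 in replicate 2, 7.5 ± 0.707 (SD, n = 2), and 91.6% of all shared sites had a mean score as high or higher. The next shared site was 261 kb away. Windows of 199 kb with any peak held 1 or more shared sites in 72.7% of cases. The interval follows the gene model 99 kb long. RefSeq lists 2 starts for this gene, far apart on GRCh38.p14, and neither was placed on hg19.

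IGFBP1 resembled PCK1 in having no shared site. The locus (chromosome 7, 45877 kb to 45984 kb) held 1 peak, in replicate 1 alone, 5.26 kb upstream of the start at 45921683 to 45921805, with a score of 5. The nearest shared site lay 84.0 kb past the gene end, on the side of IGFBP3, the neighbouring binding-protein gene. It was at 46017923 to 46018045 and scored 20 in replicate 1 and 9 in replicate 2. Windows of 107 kb with any peak had no shared site in 36.7% of cases.

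TAT had the most shared FOXA2 sites per length of the 7 loci as defined, with 50 kb on each side. Its locus (chromosome 16, 71550 kb to 71662 kb) held 8 peaks in replicate 1 and 4 in replicate 2, and 4 shared sites, or 3.57 per 100 kb. The strongest, at 71629534 to 71629656, lay 17.6 kb upstream of the start on the side of MARVELD3 and scored 43 in replicate 1 and 46 in replicate 2, 44.5 ± 2.12 (SD, n = 2). It ranked at percentile 95 of the replicate 1 list and 92.8 of the replicate 2 list, and the replicates gave it nearly the same score. A second site stood beside it, 2.89 kb farther upstream at 71632420 to 71632542, with 13 and 15 in replicates 1 and 2. On the other side of the gene, the site at 71589592 to 71589714 lay 10.3 kb past the gene end, toward CHST4, and scored 20 in both replicates. The fourth, at 71606826 to 71606948, was inside the gene, 5.11 kb from the start, and was weak in both, with 7 and 11. The 4 peaks found in replicate 1 alone scored 6 or 7, and 1 of them was only 314 bp from the replicate 2 peak of the site toward CHST4. Another, with a score of 6, lay 0.194 kb past the gene end, at the edge of the gene as far as its limits are known. Windows of 112 kb with any peak held 4 or more shared sites in 9.94% of cases over the genome and in 8.18% on chromosome 16. The 1 Mb on each side of the locus held 14 shared sites, 0.700 per 100 kb. The density at TAT was thus above that of its surroundings. With 100 kb on each side of the genes TAT had 2.36 shared sites per 100 kb and FBP1 had more, 2.94.

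CPS1, the longest gene of the set, held the site with the highest mean score, although in replicate 1 alone the G6PC site was higher, and 3 of its 4 shared sites lay inside the gene. The locus (chromosome 2, 211292 kb to 211594 kb) had 9 peaks in replicate 1 and 5 in replicate 2. The strongest site, at 211413928 to 211414050, lay 72.0 kb from the start and scored 43 in replicate 1 and 72 in replicate 2, 57.5 ± 20.5 (SD, n = 2). Of all shared sites, 6.05% had a mean score as high or higher, and the SD in score units was the largest of the 12 sites. The first site inside the gene, 40.1 kb from the start at 211382061 to 211382183, also scored lower in replicate 1, with 10 against 19 in replicate 2. The third, 178 kb from the start at 211520391 to 211520513, scored 21 and 18. The fourth lay 31.3 kb past the gene end at 211575260 to 211575382 and was weak, with 11 and 8. Near the strongest site each replicate had a peak that did not overlap the other's, with centres 152 bp apart. These were at 211409828 to 211409950 with a score of 10 in replicate 1, and at 211409662 to 211409812 with 11 in replicate 2, the only replicate 2 peak of the 7 loci without a partner. A further replicate 1 peak of 11 stood at 211406166 to 211406288, so this stretch of the gene, 64.2 kb to 72.0 kb from the start, held several peaks. Windows of 302 kb with any peak held 4 or more shared sites in 31.2% of cases, so the count at CPS1 was not unusual for its length. Shared sites numbered 1.32 per 100 kb in the locus, against 0.500 in the 1 Mb on each side, which held 10.

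**Figure D2:**
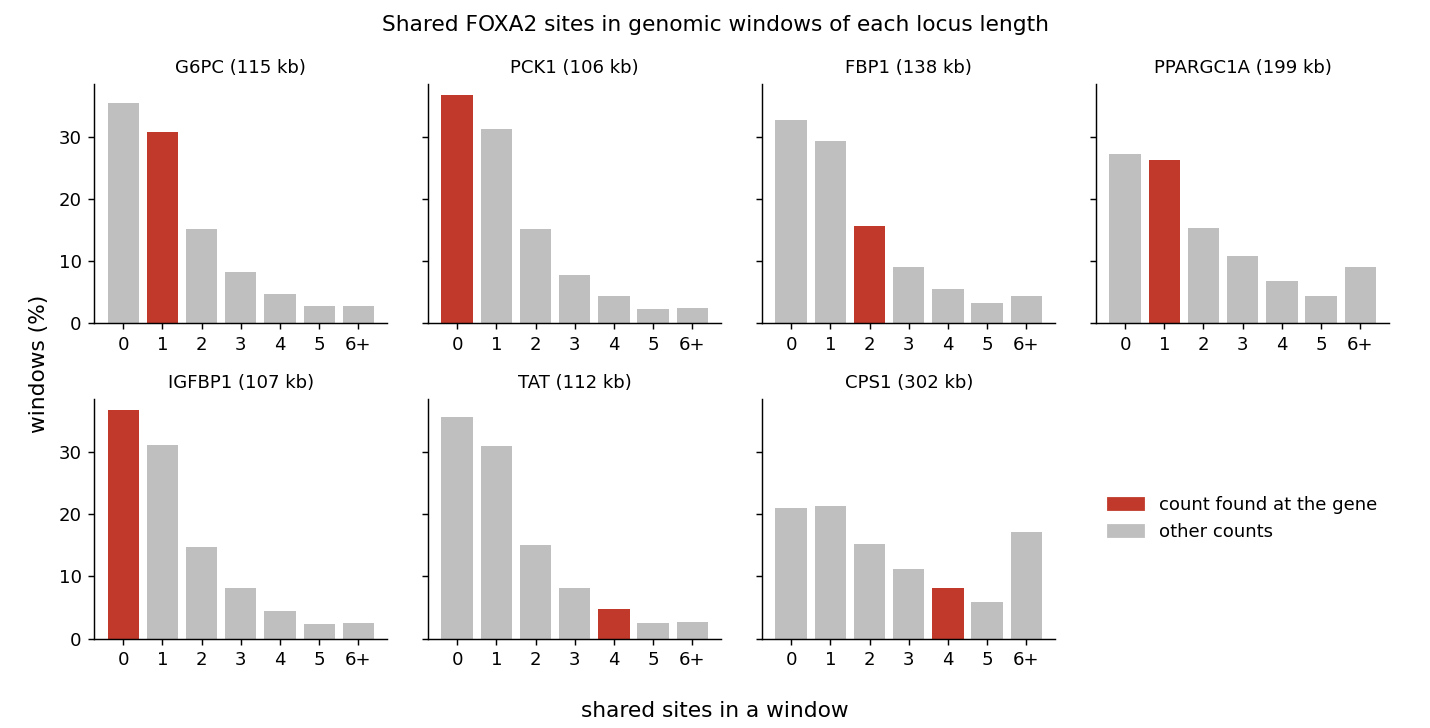
Percentage of genomic windows (vertical axis) that held a given number of shared FOXA2 sites (horizontal axis), for windows as long as each locus that held a peak of either replicate. The red bar marks the number found at the gene, which is 4 at TAT, where 9.94% of windows held as many or more, and 0 at PCK1 and IGFBP1, where 36.7% of windows held none.

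Over all 7 loci the density of shared sites was 1.11 per 100 kb, against 0.864 per 100 kb over the genome's windows of 1 Mb with a peak and 0.743 in the 1 Mb on each side of the loci. The loci held 2.78 replicate 1 peaks and 1.20 replicate 2 peaks per 100 kb, against 2.27 and 0.954 over the genome. The genes differed in how they stood to their surroundings. Besides TAT and CPS1, PPARGC1A was above its surroundings, with 0.503 per 100 kb against 0.200, although on a single site. FBP1 was close to them, with 1.45 against 1.35, but had 2.94 against 1.15 with 100 kb on each side of the gene. G6PC was below them, with 0.870 against 1.4, but with 10 kb on each side it was above them, with 2.86 against 1.4. PCK1 and IGFBP1 had none, against 0.650 and 0.4 around them, but with 100 kb on each side IGFBP1 had 0.483 against 0.350. No test was made of these densities, since the sites of a locus are not replicates.

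By position, 6 of the 12 shared sites lay inside the genes, 3 upstream and 3 downstream. The genes made up 379 kb, or 35.1% of the length of the loci, and held 1.58 shared sites per 100 kb, against 0.857 in the 700 kb of flanks. CPS1 alone accounted for 3 of the 6 sites inside genes. The share of all shared sites that lie inside genes was not counted, and other genes in the flanks were not placed. A preference for genes was therefore not tested. The upstream sites were those of FBP1 and TAT and stood 17.6 kb to 28.7 kb from the start. Of the 12 sites, 2 (the TAT pair) had another shared site within 10 kb, against 39.0% of all shared sites. The remaining sites were single, with their next shared neighbour 17.2 kb to 261 kb away.

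The limit of 50 kb decided several counts. Just inside it were a replicate 1 peak with a score of 5 at 49.5 kb past the end of G6PC and the replicate 1 peaks of 6 at 45.7 kb upstream of TAT and 45.3 kb upstream of CPS1. Just outside it, FBP1 had 4 shared sites at 53.6, 57.5, 63.2 and 66.4 kb upstream, toward AOPEP. These scored 17, 24, 15 and 21 in replicate 1 and 8, 9, 18 and 17 in replicate 2. TAT had a strong one 89.0 kb upstream, with 41 and 39 in replicates 1 and 2. In all, 9 shared sites lay between 50 kb and 100 kb from the 7 genes, 5 of them at FBP1.

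The shared sites of these loci did not stand far from all shared sites in score. Their mean score of the 2 replicates had a median of 17.0, against 14.5 over all 24345 shared sites. By replicate, the median was 16.5 in replicate 1 and 18.0 in replicate 2, against 16.0 and 13.0 over all shared sites. Sites that scored 20 or more in both replicates were 4 of the 12 (G6PC, CPS1 and 2 at TAT), against 25.8% of all shared sites. Replicate 1 peaks of 20 or more numbered 6 in the loci and all 6 were shared, as were 94.6% of such peaks in the whole list. The 18 peaks of replicate 1 alone scored 5 to 14 with a median of 6.5, against 6.0 over all peaks of that kind.

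The scores of the replicates were set against each other site by site. Replicate 1 scored higher at 5 of the 12 sites, against 63.7% of all shared sites, replicate 2 at 6, and 1 site was equal. The log2 ratio of replicate 1 to replicate 2 had a median of -0.05 with an SD of 0.48 across the sites, against 0.26 and 0.62 over all shared sites. At G6PC the ratio was 0.53 and at FBP1 0.35 and 0.24, near the medians of 0.39 and 0.28 for shared sites of chromosomes 17 and 9. At PPARGC1A it was -0.19, with a chromosome 4 median of 0.15. The sites of TAT had 0.00, -0.65, -0.10 and -0.21, all below the chromosome 16 median of 0.34. Those of CPS1 had -0.93, -0.74, 0.22 and 0.46, on both sides of the chromosome 2 median of 0.30.

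Counting error alone gave an SD of 0.19 to 0.53 for these ratios, estimated from the approximate tags behind each score. At the strongest CPS1 site the scores stood for about 113 tags in each replicate, with a counting SD of 0.19, and its ratio of -0.74 was as low or lower in 4.85% of all shared sites. The ratio of -0.93 at the first CPS1 site was as low or lower in 2.80%, with a counting SD of 0.39. With 12 sites and 2 libraries, no test of this difference was made. Peak centres of the 2 replicates lay a median of 13.0 bp apart at the 12 sites and 33.0 bp at most, against a median of 15 bp over all shared sites.

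**Figure D3:**
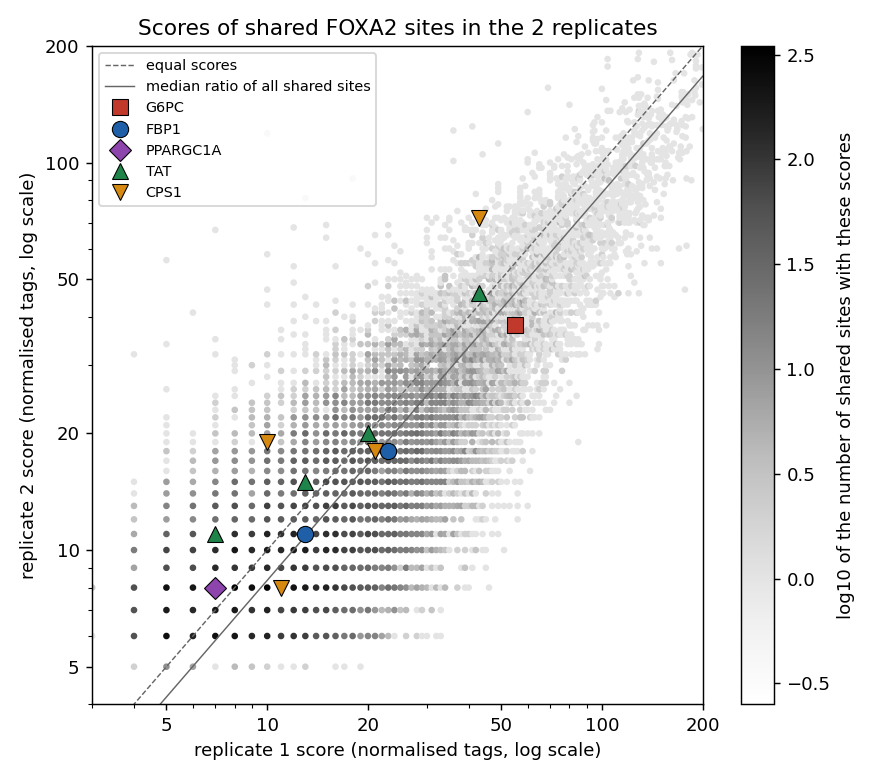
Score of each shared FOXA2 site in replicate 1 (horizontal) and replicate 2 (vertical), in normalised tags on log axes, with the 12 sites of the loci in colour by gene and all shared sites up to a score of 200 in grey, darker where more sites have those scores. The dashed line marks equal scores and the solid line the median ratio of all shared sites. The CPS1 sites at 43 and 72 and at 10 and 19, in replicates 1 and 2, stand above both lines, and the G6PC site at 55 and 38 below them.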

How the data were processed

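The labels describe 3 libraries from Caco2 cells, 2 FOXA2 immunoprecipitations and 1 input. The submitters' processing notes give hg19 as the build and name Bowtie 1.0.0 and HOMER 1.2. Per the file headers, the authors called peaks with HOMER findPeaks in factor style, separately in each replicate, requiring 4 times the input and 4 times the surrounding 10000 bp, at a false discovery rate of 0.001. The deposited score of a peak is its tag count, which the authors brought to a library of 10000000 tags and rounded to whole numbers. Scaled back, the scores summed to within 0.450% and 0.196% of the headers' tags in peaks, and 1 unit stands for 2.62 tags in replicate 1 and 1.58 in replicate 2. Peaks are 123 bp and 151 bp wide in replicates 1 and 2.

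The 7 genes, intervals, motif strings and comparisons were chosen with earlier results of these data known. In each locus all shared sites and the highest single-replicate peak were to be named. Locus counts were set beside non-overlapping windows of the same length, tiled from the first peak of chromosomes 1 to 22 and X, that held a peak of either replicate. Percentiles give ties their average rank. Strand came from the RefSeq promoter table for G6PC, FBP1, PPARGC1A and CPS1 and from general knowledge for PCK1, IGFBP1 and TAT. RefSeq tables are on GRCh38.p14 and gave only names, gene order and the promoter windows, whose last 50 bases after the start were left out. No sequence of the hg19 sites was read, and other genes of the pathway were not analysed here. Alternatives changed the overlap rule, a minimum score, the flank and the replicates used. Overlap and window counting were tested on simulated data. Python 3.11.15, numpy 2.4.6, scipy 1.17.1, pandas 2.3.3 and matplotlib 3.10.9 were used.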

Additional observations from a re-analysis of the deposited data

How the results depend on the processing

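The count of 12 shared sites at the 7 loci and their density were unchanged with midpoints within 100 bp and when the overlap had to cover 50% of both peaks. When centres up to 500 bp apart counted there were 14, counted as replicate 1 peaks with a partner, and 100% of the replicate 2 peaks were shared. The CPS1 peaks 152 bp apart and a replicate 1 peak at TAT then counted. That TAT peak lay 314 bp from the replicate 2 peak already paired at the site toward CHST4, so it counted the same site again. Scores of at least 10 in both replicates left 9 sites, and none at PPARGC1A. The shared part of the replicate 2 peaks was then 81.8%, against 92.3% in the main count. It was 87.5% with 10 kb on each side of the genes and 91.3% with 100 kb. Scores of at least 20 left 4 sites (0.371 per 100 kb), none at FBP1 or PPARGC1A, with 100% of replicate 2 peaks shared. With 10 kb on each side of the genes 7 sites were counted, 1 of them at TAT, and with 100 kb 21, including 7 at FBP1 and 1 each at PCK1 and IGFBP1. The density over all loci moved less, to 1.35 and 1.18 per 100 kb, but FBP1 passed TAT with 100 kb, and the direction against the surroundings turned at G6PC with 10 kb and at IGFBP1 with 100 kb, as given above (a comparison added after seeing the data). Leaving out a replicate gave 13 to 30 peaks, or 1.20 to 2.78 per 100 kb, with the higher values from replicate 1 alone, whose list is longer. The median log2 ratio of the replicates was between -0.19 and 0.22 in all of these, so its sign is not stable. Moving the window grid by part of its step, an alternative chosen after seeing the data, changed no locus percentage by more than counting error. No paired analysis was possible because the design has a single condition. Depth limits what a missing peak says.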
